A study of Mus musculus with 2 samples.

Results

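Expression of 10 genes for secreted Wnt modulators was examined in single cells of the mouse uterus. They were chosen by symbol, and all 10 were found among the 32285 genes listed in both matrices: the Wnt-binding antagonists Sfrp1, Sfrp2, Sfrp4, Sfrp5 and Wif1, the dickkopf genes Dkk2 and Dkk3, the Wnt deacylase gene Notum, and the R-spondin genes Rspo1 and Rspo3. Whole uteri of C57BL/6J female mice aged 6 months were digested with collagenase, treated to lyse red cells, and profiled by droplet-based 3' RNA sequencing, in which each unique molecular identifier (UMI) marks 1 captured transcript. Control mice had floxed Prickle1, a planar cell polarity gene, without a Cre (Prickle1 f/f). The other mice, called cKO here, had floxed Prickle1 and a Cre recombinase driven by Ltf, the lactoferrin gene (Prickle1 f/f Ltf-cre). Each group was 1 library made from 3 pooled mice. Groups follow the sample titles, while the genotype entry of both samples reads wild-type. The Cre is expected only where Ltf is or was transcribed, which in the uterus is chiefly the epithelium, so stromal, muscle and mesothelial cells were not its intended target. The stage of the oestrous cycle is not given in the sources used here. With 1 library a group there is no replicate, so genotype, animals, cycle stage and library preparation cannot be told apart. Intervals are 95% and cover counting error only, and no p-value is given.

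Wnt proteins are lipid-modified signals that bind Frizzled receptors and the LRP5 and LRP6 co-receptors, which stabilises beta-catenin and turns on TCF/LEF target genes in the canonical branch. Secreted frizzled-related proteins and WIF1 bind Wnt proteins outside the cell, DKK2 acts on the LRP co-receptors, NOTUM removes the lipid that Wnt proteins need, and R-spondins bind LGR receptors and protect Frizzled from removal by the ligases RNF43 and ZNRF3. In the uterus, Wnt signals pass between stroma and epithelium during gland formation, cycling, implantation and decidualization. DKK3 belongs to the dickkopf family by sequence but is not an established inhibitor at the LRP receptors.

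The libraries held 45035801 (control) and 57145553 (cKO) UMIs. Barcodes with at least 500 genes and at most 20% mitochondrial UMIs gave 3653 control cells (median 4650 UMIs) and 4950 cKO cells (median 5944 UMIs), and 5 cell barcodes were shared. Cells were classed by having a UMI of 1 class gene and none of the other 4: Pdgfra for stromal (608 control, 1409 cKO cells), Actg2 for muscle (291, 501), Epcam for epithelial (921, 59), Ptprc for immune (665, 1527) and Msln for mesothelial cells (25, 32). In every class and library no marker of the class's own list was at 0, although mesothelial cells also held much of the stromal list, mainly Dcn. Levels are CPM, UMI counts scaled to a class total of 1000000. A gene was called past 2-fold when it had at least 20 UMIs over both libraries and a ratio of at least 2 or at most 0.5. Prickle1 gave no check of the labels: epithelial cells held 12 UMIs of it in control (0.739 CPM) and 4 in cKO (1.92 CPM), and 3' reads need not lie in the deleted part. Over all cells Prickle1 was higher in cKO, at 2.65 CPM in control (100 UMIs, 2.16 to 3.23) and 8.24 CPM in cKO (436 UMIs, 7.49 to 9.05). In stroma it was at 3.94 and 9.35 CPM, and in immune cells at 1.62 and 6.32 CPM. The cause of this was not tested. Ltf itself was at 1569 CPM in control epithelial cells and 165 CPM in cKO ones.

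The cell types in which each modulator was detected differed from gene to gene. Sfrp4 was chiefly stromal: of its UMIs in cells, 74.3% in control and 81.5% in cKO lay in the stromal class. Rspo1 had its highest level in mesothelial cells, the lining of the uterine surface, at 159 CPM in control and 170 CPM in cKO against 6.61 and 2.64 CPM in stroma. Sfrp1 was likewise highest in mesothelial cells, at 146 and 134 CPM, then in stroma at 31.6 and 14.7 CPM. The intervals of the mesothelial and stromal levels of both genes did not overlap in either library. Rspo3 was highest in muscle, then in mesothelial cells, whose interval overlapped that of muscle in cKO and that of stroma in both libraries.

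**Figure D1:**
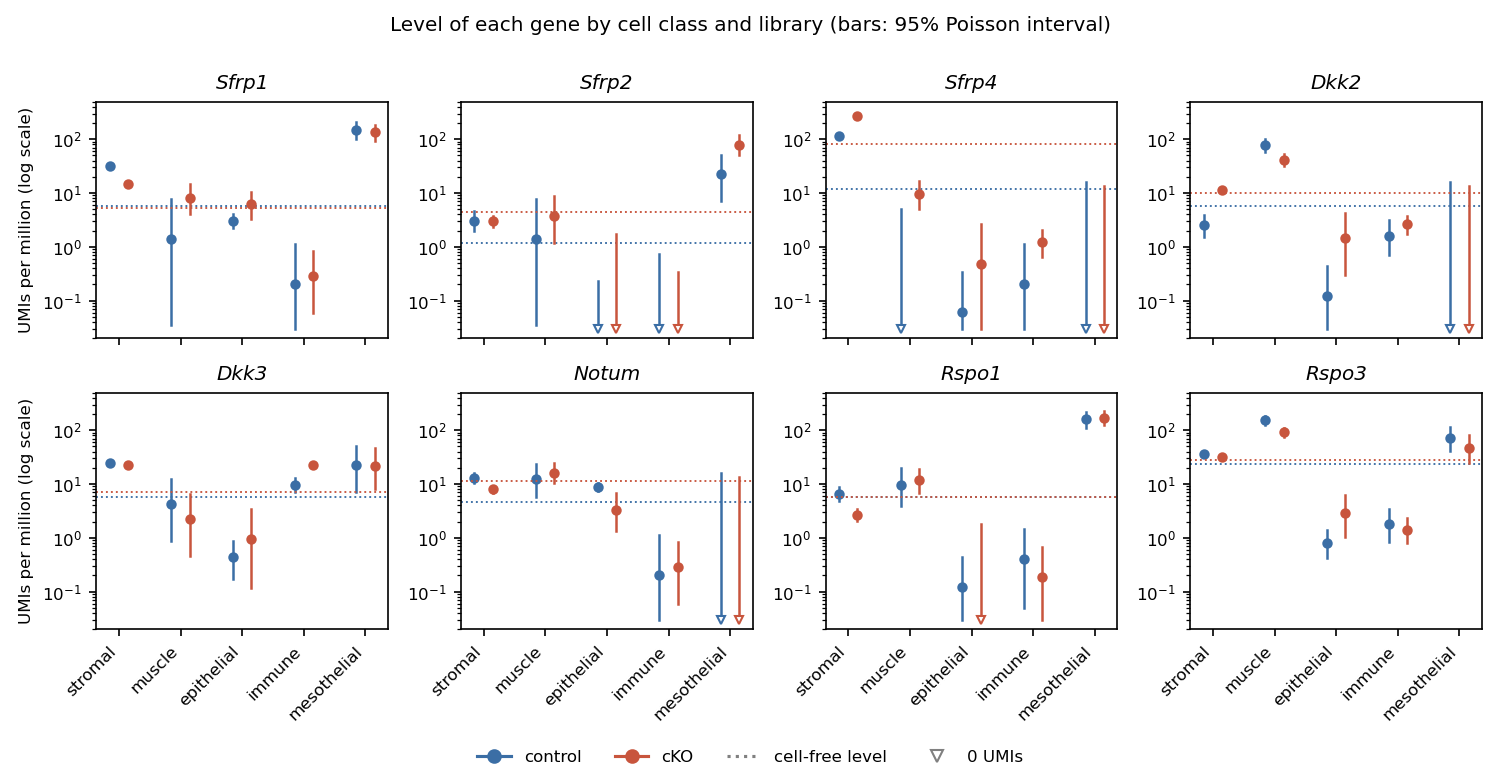
Level of 8 genes in CPM (log axis) in each cell class, with control in blue, cKO in red, 95% Poisson intervals as bars, the cell-free level as dotted lines and open triangles for 0 UMIs. Sfrp4 stands highest in stroma, Dkk2 and Rspo3 in muscle, and Sfrp1, Sfrp2 and Rspo1 in mesothelial cells.

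Dkk2 was highest in muscle in the control library, where muscle cells stood at 78.0 CPM and stroma at 2.54 CPM. In the cKO library muscle was still the higher, at 41.5 CPM against 11.6 CPM in stroma. Notum did not have a single site: in control it was at 13.0 CPM in stroma, 12.5 CPM in muscle and 8.87 CPM in epithelium, and the interval of muscle (5.73 to 23.8 CPM) overlapped both others. Of these, only the stromal interval (10.6 to 15.7 CPM) lay above that of Notum in RNA free in solution (4.65 CPM), which is described below. Dkk3 was at 24.5 CPM in stroma, 22.1 CPM in mesothelial cells and 9.71 CPM in immune cells of the control. Its epithelial level there was 0.431 CPM. Sfrp5 and Wif1 were close to undetected: over all cells control held 0 UMIs of each, and cKO held 1 UMI of Sfrp5 and 2 of Wif1. A count of 0 in control allows up to 3 counts, or 0.0796 CPM.

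RNA free in solution also reaches cells, so levels were set beside barcodes with at most 100 UMIs. Sfrp4 made up 11.6 CPM of this cell-free RNA in control but 82.3 CPM in cKO, a ratio of 7.07 (4.79 to 10.8). Immune cells, which should lack the gene, held Sfrp4 at 0.202 CPM (1 UMI) and 1.23 CPM (13 UMIs), far under its stromal level in the same library. Notum was at 4.65 CPM in control cell-free RNA and 11.4 CPM in cKO, where its stromal level of 8.03 CPM did not exceed it. Rspo1 in cKO stroma (2.64 CPM) and Sfrp2 in cKO stroma (2.97 CPM) also lay under their cell-free levels of 5.69 and 4.38 CPM. In control stroma Rspo1 (6.61 CPM, 4.94 to 8.67) overlapped its cell-free level (5.82 CPM, 3.26 to 9.60), so neither library's stromal Rspo1 exceeded it beyond the intervals. In cKO stroma Rspo3 (31.3 CPM, 29.2 to 33.7) also overlapped its own (28.4 CPM, 22.0 to 36.3). Dkk2 in control stroma (2.54 CPM) lay under its cell-free level of 5.82 CPM, and in cKO its stromal interval (11.6 CPM, 10.3 to 13.0) overlapped the cell-free one (10.1 CPM, 6.38 to 15.1). In immune cells Notum stood at 0.202 and 0.283 CPM, Rspo1 at 0.405 and 0.189 CPM, and Sfrp2 had no UMI, each under its stromal level in the same library. The share of cell-free RNA in the UMIs of a cell was not estimated, so its part in these levels was not tested.

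In stromal cells the Wnt-binding antagonists split: Sfrp4 was higher and Sfrp1 lower in the cKO library, and Sfrp2 lay within 2-fold. Dkk2 was higher from very few control cells, and the agonist gene Rspo1 was lower. Of the 10 genes, 8 had enough UMIs in this class; 2 were past 2-fold higher and 2 past 2-fold lower. Over all 13283 genes with enough UMIs in stroma, 6.07% were past 2-fold higher and 6.65% past 2-fold lower. The median log2 ratio was -0.17 over the 8 genes and -0.03 over all genes.

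Sfrp4 encodes a frizzled-related antagonist and lies on chromosome 13 from 19623104 to 19632994 on the plus strand (GRCm38). It was at 114 CPM in control stroma (900 UMIs, 107 to 122) and at 272 CPM in cKO stroma (6609 UMIs, 266 to 279). The cKO level was 2.38 times that of control (2.22 to 2.55). Both more cells and more UMIs per cell went with it: after thinning each cell to 5000 UMIs, 23.7% of 456 control cells and 39.1% of 1231 cKO cells held a UMI, and positive cells held a mean of 2.65 and 3.53 UMIs. Without thinning, 32.4% of control cells (median depth 11610.5 UMIs) and 50.5% of cKO cells (15533 UMIs) held one. Of immune cells without thinning, 1 of 665 in control (0.150%) and 12 of 1527 in cKO (0.786%) held one. Thinned to 1000 UMIs, the stromal shares were 10.0% and 16.7%, and 0 of 656 control and 0 of 1510 cKO immune cells held one, which allows shares of up to 0.457% and 0.199% at 1000 UMIs a cell. At that depth the log2 ratio was 0.999, just short of 2-fold, against 1.25 from all UMIs.

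Sfrp1, which encodes another frizzled-related antagonist, lies on chromosome 8 from 23411502 to 23449632 on the plus strand. It was at 31.6 CPM in control stroma (249 UMIs, 27.8 to 35.8) and 14.7 CPM in cKO stroma (358 UMIs, 13.3 to 16.4). It was therefore 2.15-fold lower in cKO (1.82 to 2.53), and the intervals did not overlap. A UMI was found in 14.9% of control and 7.07% of cKO cells thinned to 5000 UMIs, and in 24.0% and 15.8% without thinning. Immune cells held one in 0.150% and 0.196% of cells, at median depths of 6014 and 5330 UMIs. Sfrp2 was at 3.05 CPM (24 UMIs) and 2.97 CPM (72 UMIs), a ratio of 0.972 (0.605 to 1.61).

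Dkk2, whose product acts on LRP co-receptors, lies on chromosome 3 from 132085292 to 132180304 on the plus strand. It had 20 UMIs in 4 control stromal cells (2.54 CPM) and 281 UMIs in 70 cKO stromal cells (11.6 CPM). The ratio was 4.55 (2.89 to 7.57), but 15 of the 20 control UMIs came from 1 cell. Without the cell that held most UMIs in each library the log2 ratio was 4.05 in place of 2.19. The control level thus rests on a handful of cells, and thinned cells with a UMI made up 0.658% of control and 2.84% of cKO stroma. Neither stromal level exceeded the cell-free level of its library beyond the intervals. Immune cells held Dkk2 at 1.62 CPM in control (8 UMIs) and 2.64 CPM in cKO (28 UMIs). In control the immune interval overlapped that of stroma (1.55 to 3.93 CPM). The muscle list in stroma summed to 634 CPM (control) and 702 CPM (cKO), of which Des made up 467 and 529 CPM, with Acta2 at 34.4 and 54.8 CPM and Actg2 at 0 by the gate. The part of muscle or cell-free RNA in the Dkk2 ratio was not tested. Dkk3 was at 24.5 CPM (193 UMIs) and 22.5 CPM (545 UMIs), a ratio of 0.915 (0.775 to 1.08).

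Notum, a feedback inhibitor that is itself induced by canonical signalling in several tissues, is on the minus strand of chromosome 11, bases 120653788 to 120661175. It was at 13.0 CPM in control stroma (102 UMIs) and 8.03 CPM in cKO stroma (195 UMIs), a ratio of 0.620 (0.485 to 0.795). Of the agonists, Rspo1 (chromosome 4, 124986430 to 125009099, plus strand) was at 6.61 CPM (52 UMIs) and 2.64 CPM (64 UMIs), 2.51-fold lower in cKO (1.70 to 3.67), with neither level above that of cell-free RNA beyond the intervals. Rspo3 was at 36.2 CPM (285 UMIs) and 31.3 CPM (761 UMIs), a ratio of 0.865 (0.754 to 0.995). The 2 R-spondin genes therefore lay on different sides of the 2-fold limit, and the difference between their ratios was not tested. The red cell list in stroma summed to 61.6 CPM in control but 1.19 CPM in cKO, with none of its 4 genes at 0, and the epithelial list to 26.2 and 8.07 CPM with 1 of 6 genes, Epcam, at 0 by the gate. The lymphatic endothelial list summed to 1351 and 1045 CPM with none of 5 at 0, most of it Pdpn, while Ccl21a was at 113 and 8.20 CPM, Mmrn1 at 22.2 and 1.28 CPM and Lyve1 at 26.3 and 7.04 CPM. The part of these cells in the stromal ratios was not tested.

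**Figure D2:**
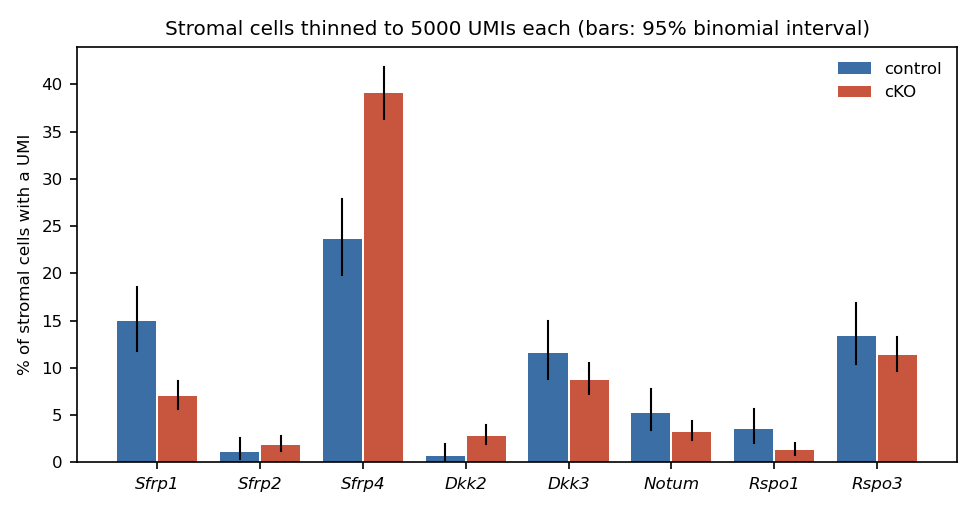
Percentage of stromal cells with at least 1 UMI of each gene after thinning every cell to 5000 UMIs, for 456 control (blue) and 1231 cKO cells (red), with exact binomial 95% intervals. Sfrp4 is at 23.7% and 39.1%, Sfrp1 at 14.9% and 7.07%, while Sfrp2 is at 1.10% and 1.87%.

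Of the 4 genes past 2-fold in stroma, Dkk2 and Rspo1 had a promoter in the RefSeq table used here (GRCm38.p6), as did Sfrp2, Sfrp5 and Wif1. The 250 bases before the start of Dkk2 (chr3:132085042-132085291, plus strand) and of Rspo1 (chr4:124986180-124986429, plus strand) are shown because these genes lay on opposite sides in stroma, with capitals for matches to 3 motifs searched on both strands: the TCF/LEF core CTTTGA, the TATA box TATAAA and the GC box GGGCGG.
Dkk2: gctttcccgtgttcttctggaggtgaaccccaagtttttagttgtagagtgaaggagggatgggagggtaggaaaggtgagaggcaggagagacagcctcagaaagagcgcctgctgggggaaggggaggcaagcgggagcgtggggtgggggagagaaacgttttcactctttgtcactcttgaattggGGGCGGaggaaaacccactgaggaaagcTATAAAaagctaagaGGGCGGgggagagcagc
Rspo1: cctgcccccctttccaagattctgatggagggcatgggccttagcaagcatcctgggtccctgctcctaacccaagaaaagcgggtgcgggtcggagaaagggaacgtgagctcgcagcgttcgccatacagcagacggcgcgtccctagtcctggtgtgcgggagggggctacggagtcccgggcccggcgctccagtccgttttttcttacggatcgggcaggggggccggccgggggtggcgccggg
The Dkk2 stretch held a TATA box that begins 32 bases before the start and GC boxes that begin 60 and 17 bases before it, and the Rspo1 stretch held none of the 3 motifs. The TCF/LEF core was in none of the 5 stretches, against 13.8% of 32851 promoters in the table. The TATA box was in 2 of 5 (Dkk2 and Wif1) against 12.4%, and the GC box in 3 of 5 (Dkk2, Wif1 and Sfrp5) against 32.7%. A match is a match of letters only, and its absence says nothing beyond this window.

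In muscle, Rspo3 and Dkk2 were the modulators with the highest counts, and both were lower in cKO without passing 2-fold. Rspo3 was at 155 CPM in control (111 UMIs, 127 to 186) and 91.2 CPM in cKO (123 UMIs, 75.8 to 109), a ratio of 0.590 (0.453 to 0.770). Dkk2 was at 78.0 CPM (56 UMIs, 58.9 to 101) and 41.5 CPM (56 UMIs, 31.4 to 53.9), a ratio of 0.533 (0.361 to 0.786). For each of these genes the interval of control lay above that of cKO. Notum was at 12.5 and 16.3 CPM and Rspo1 at 9.75 and 11.9 CPM, with wide intervals that overlapped. Of the 4 genes with enough UMIs, 0 were past 2-fold in either direction, against 6.15% (higher) and 4.44% (lower) of 8215 genes.

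The muscle result moved with the way cells were chosen. Thinned to 1000 UMIs, both Dkk2 and Rspo3 were past 2-fold lower (log2 -1.60 and -1.15), and Dkk2 was past it with the strict gate (at least 2 UMIs of Actg2 and more of it than of each other class gene, log2 -1.28). Other cell markers differed between the muscle cells of the libraries: haemoglobin genes summed to 76.6 CPM in control but 1882 CPM in cKO, with 1 of 4 and 0 of 4 at 0. Blood endothelial markers summed to 166 and 11.9 CPM, with 1 of 5, Vwf, at 0 in cKO, and pericyte markers to 97.5 and 57.1 CPM with none of 5 at 0. The epithelial list summed to 202 and 20.02 CPM, with 1 of 6, Epcam, at 0 by the gate. Their part in the Dkk2 and Rspo3 values was not tested. Sfrp4 had 0 UMIs in control muscle and 13 in cKO muscle (9.64 CPM), under the cell-free level of each library.

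**Figure D3:**
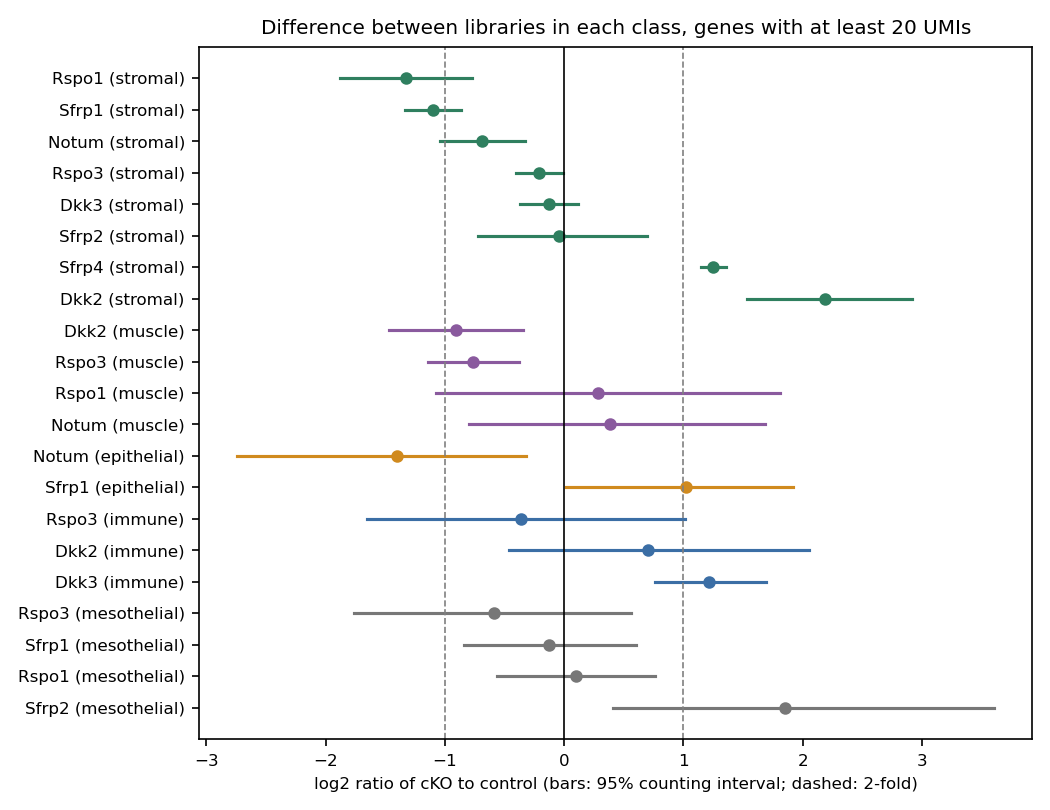
Log2 ratio of cKO to control for each gene and class with at least 20 UMIs over both libraries, with 95% counting intervals as bars and dashed lines at 2-fold. Dkk2 lies at 2.19 in stroma and -0.91 in muscle, and Sfrp1 at -1.10 in stroma and 1.02 in epithelium.

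In epithelium, Notum was lower and Sfrp1 higher in cKO, both on few cKO cells. Notum had 144 UMIs in 96 of 921 control cells (8.87 CPM, 7.48 to 10.4) and 7 UMIs in 4 of 59 cKO cells (3.36 CPM, 1.35 to 6.92), so it was 2.64-fold lower (1.25 to 6.69). The control level overlapped that of cell-free RNA (4.65 CPM, 2.41 to 8.13) and the cKO level lay under it (11.4 CPM, 7.43 to 16.7). Immune cells held Notum at only 0.202 CPM in control and 0.283 CPM in cKO. The share of cell-free RNA within cells was not estimated, so its part in epithelial Notum was not tested. The epithelial share of all Notum UMIs in cells was 43.9% in control and 2.51% in cKO, where there were far fewer epithelial cells. Cells with a UMI made up 10.4% (median depth 6058 UMIs) and 6.78% (15778 UMIs), against 0.150% and 0.196% of immune cells. Weighting cells equally gave a log2 ratio of -3.02 in place of -1.40.

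Sfrp1 had 50 UMIs in control epithelium (3.08 CPM) and 13 UMIs in 10 cKO epithelial cells (6.24 CPM), a ratio of 2.03 (1.01 to 3.78). These levels lay near the cell-free levels of 5.82 and 5.25 CPM. The call was lost under several settings: the log2 ratio was 1.02 as computed, 0.33 with cells weighted equally, 0.56 with TMM factors and 0.83 without the cell with most UMIs. The stromal list in epithelial cells summed to 70.4 and 163 CPM with 2 of 6 genes at 0 in each library, Pdgfra among them by the gate, and the muscle list to 27.6 and 609 CPM with 1 and 2 of 6 at 0, of which Acta2 alone made up 9.36 and 565 CPM. The lymphatic endothelial list summed to 11.6 and 282 CPM with none of 5 at 0, Prox1 being at 0.246 and 95.5 CPM and Ccl21a at 6.71 and 117 CPM. Their part in the Notum and Sfrp1 ratios was not tested. Of 12179 epithelial genes with enough UMIs, 21.9% were past 2-fold higher and 12.8% past 2-fold lower, a high background for the 2 genes counted here. Neither Sfrp2, Sfrp5 nor Wif1 had a UMI in the epithelial class of either library.

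In immune cells Dkk3 was the one modulator past 2-fold, at 9.71 CPM in control (48 UMIs, 7.16 to 12.9) and 22.5 CPM in cKO (239 UMIs, 19.8 to 25.6). This was 2.32-fold (1.70 to 3.23), and 12.4% of 12141 immune genes were past 2-fold higher (7.44% lower). TMM factors, which moved all immune ratios by 0.26 on the log2 scale, brought it to a log2 ratio of 0.96. Cells with a UMI of Dkk3 made up 4.21% of control and 8.06% of cKO immune cells. After thinning to 1000 UMIs they were 1.22% and 3.38%, in the same order, and the cKO cells had the lower median depth (5330 against 6014 UMIs). The stromal list in immune cells was 56.3 and 89.5 CPM with 1 of 6 genes, Pdgfra, at 0 by the gate, and the red cell list 9.71 and 346 CPM with none of 4 at 0. Their part was not tested.

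Dkk3 is on the minus strand of chromosome 7, bases 112116017 to 112159057. Its UMIs in immune cells were concentrated in cells with Trdc, the constant chain of the delta T cell receptor. Cells with a UMI of Trdc numbered 89 in control and 470 in cKO, and held Dkk3 at 76.3 CPM (53.4 to 106) and 69.8 CPM (60.7 to 79.8). Cells without one held it at 2.68 CPM (1.39 to 4.69) and 3.44 CPM (2.25 to 5.05). For both kinds of cell the intervals of the libraries overlapped. Other splits differed: among cells with Cd3e, a chain of the T cell receptor complex, Dkk3 was at 59.0 CPM (41.7 to 81.0) in control and 109 CPM (94.6 to 126) in cKO, and among cells without Thy1, a T cell surface gene, at 3.30 CPM (1.81 to 5.54) and 11.7 CPM (9.52 to 14.3). In neither of these did the intervals overlap. How far the makeup of the immune class accounts for the higher level in cKO was not tested. Of the macrophage genes, cells with Csf1r held 0 UMIs of Dkk3 in 163 control cells and 1 UMI in 106 cKO cells, and cells with C1qa 0 UMIs in 166 control cells and 8 UMIs in 92 cKO cells (7.68 CPM, 3.32 to 15.1). These lineage genes were chosen after the values were seen.

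**Figure D4:**
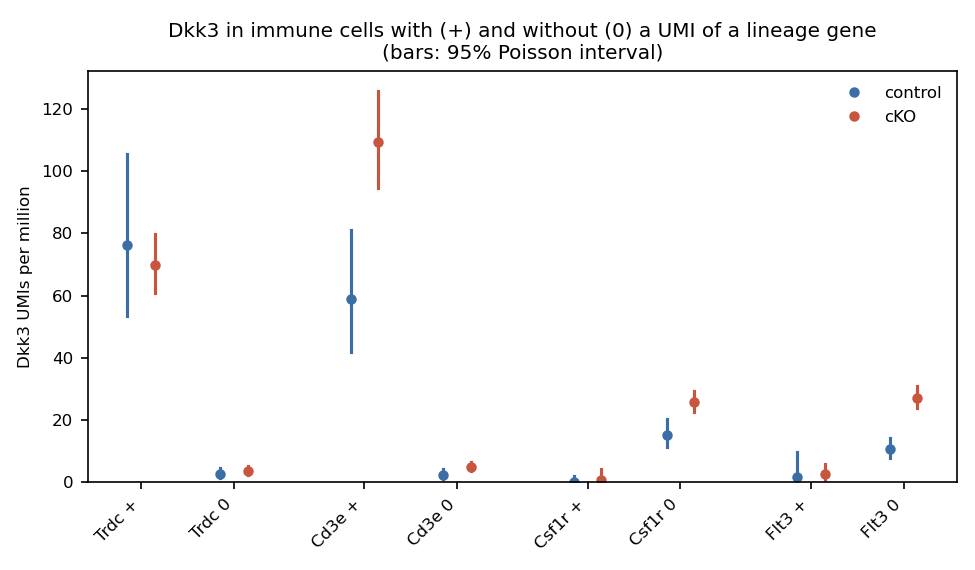
Dkk3 level in CPM of immune cells split by whether they held a UMI (+) or none (0) of a lineage gene, control in blue and cKO in red, with 95% Poisson intervals. Trdc-positive cells stand at 76.3 and 69.8 in the control and cKO libraries, against 2.68 and 3.44 in Trdc-negative cells.

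In the mesothelial class, with 25 control and 32 cKO cells, Rspo1 and Sfrp1 were alike in level between the libraries as far as these counts can show. The ratio was 1.07 (0.677 to 1.70) for Rspo1, from 36 control and 47 cKO UMIs. For Sfrp1 it was 0.917 (0.558 to 1.51), from 33 and 37 UMIs. Neither interval reached 2-fold. The lower levels of these genes in cKO stroma thus had no counterpart of the same size here, but the difference between classes was not tested. Rspo3 was at 70.8 and 47.1 CPM, with overlapping intervals. Sfrp2 had 5 UMIs in control (22.1 CPM) and 22 in cKO (79.7 CPM), a ratio of 3.60 (1.33 to 12.2), and 10 of the 22 came from 1 cell. With the strict gate its log2 ratio was -0.25 in place of 1.85. The lymphatic endothelial list in this class summed to 336 and 996 CPM, with 4 of 5 genes (all but Pdpn) at 0 in control and none in cKO. The blood endothelial list summed to 13.3 and 134 CPM with 4 and 2 of 5 at 0. The part of either list in the Rspo1, Sfrp1, Rspo3 and Sfrp2 ratios was not tested. Of 4253 genes, 11.4% were past 2-fold higher and 4.23% lower. Sfrp4, Dkk2 and Notum had no UMI in either library, which allows up to 13.3 CPM in control and 10.9 CPM in cKO.

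Rspo1 and Sfrp2 also had many of their UMIs in cells that held more than 1 class gene and so fell in no class. For Rspo1 these were 34.6% of its UMIs in control and 50.5% in cKO, and for Sfrp2 58.9% and 44.0%. Over all cells, without classes, Sfrp4 was 4.77-fold higher in cKO (32.1 and 153 CPM), Dkk2 2.80-fold (3.74 and 10.5 CPM) and Dkk3 2.27-fold (8.60 and 19.5 CPM). The genes past 2-fold lower in stroma were not lower over all cells: the ratio was 1.13 (1.00 to 1.27) for Sfrp1 and 1.18 (0.982 to 1.43) for Rspo1. In the cells with more than 1 class gene alone, it was 1.25 (0.983 to 1.59) for Sfrp1 and 1.23 (0.910 to 1.67) for Rspo1, intervals that include 1. With the gate open to any cell with Pdgfra both stayed lower, at log2 ratios of -1.09 and -1.25. Notum was lower over all cells too (8.70 and 5.27 CPM), 1.65-fold. The all-cell values join level and cell composition: stromal cells were 16.6% of control and 28.5% of cKO cells, and immune cells 18.2% and 30.8%.

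Stromal cells were next split by a UMI of a gene from an earlier clustering of these same data, in which Sfrp4 helped to name 1 group, so the splits are not independent of it. The genes themselves differed between the libraries: in the stromal class Cilp was at 94.2 CPM in control and 195 CPM in cKO, Hsd11b2 at 28.3 and 145 CPM, Dio2 at 103 and 459 CPM, and Inmt at 56.4 and 8.07 CPM. Cilp encodes a cartilage intermediate layer protein, Hsd11b2 an enzyme that inactivates glucocorticoids, Dio2 a deiodinase that makes active thyroid hormone, and Inmt an amine methyltransferase. A cell with few UMIs is more often at 0 for any of them.

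The ratio of cKO to control for Sfrp4 was not the same over all stromal cells. In cells with Cilp control stood at 148 CPM and cKO at 437 CPM, a ratio of 2.95 (2.64 to 3.30), and in cells without Cilp at 100.0 and 178 CPM, a ratio of 1.78 (1.63 to 1.96). In cells with Hsd11b2 it was at 196 and 229 CPM, a ratio of 1.17 (1.02 to 1.36), and in cells without it at 102 and 322 CPM, a ratio of 3.15 (2.91 to 3.42). The intervals of the ratio did not overlap between cells with and without Hsd11b2, nor between cells with and without Cilp. Cells with Cyp26b1, which encodes a retinoic acid hydroxylase, held Sfrp4 at 41.2 CPM in control and 49.3 CPM in cKO, the lowest of the groups named here.

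Sfrp1 and Dkk3 were set beside the same splits. Sfrp1 was at 20.02 and 18.3 CPM in cells with Cilp, a ratio of 0.913 (0.656 to 1.29), and at 36.6 and 12.7 CPM in cells without it, a ratio of 0.348 (0.285 to 0.426). The Hsd11b2 split also parted Sfrp1, at ratios of 1.45 (0.716 to 3.42) with it, from 8 control UMIs, and 0.534 (0.442 to 0.644) without. So did Gpr83, from the same clustering, at 2.69 (0.898 to 13.2) with it, from 3 control UMIs, and 0.386 (0.322 to 0.464) without. By Inmt and Dio2 Sfrp1 was lower in cKO on both sides. The ratios were 0.483 (0.339 to 0.684) with Inmt and 0.517 (0.425 to 0.632) without. With Dio2 they were 0.382 (0.267 to 0.557) and without it 0.621 (0.511 to 0.754). Dkk3 was at 18.4 and 29.3 CPM in cells with Hsd11b2, a ratio of 1.59 (1.01 to 2.67), and at 25.5 and 14.6 CPM in cells without it, a ratio of 0.572 (0.459 to 0.712). Its ratio lay on either side of 1 by this split but not by every one: split by Dio2, it was below 1 in both groups of cells, at 0.824 (0.618 to 1.12) with it and 0.596 (0.468 to 0.759) without. By the Hsd11b2 split Rspo3 was at 15.5 and 31.8 CPM with Hsd11b2, a ratio of 2.05 (1.25 to 3.63), and at 39.4 and 30.8 CPM without it, a ratio of 0.782 (0.665 to 0.921). Rspo1 was lower in cKO both with and without Hsd11b2, at ratios of 0.347 (0.158 to 0.867) and 0.400 (0.241 to 0.653).

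**Figure D5:**
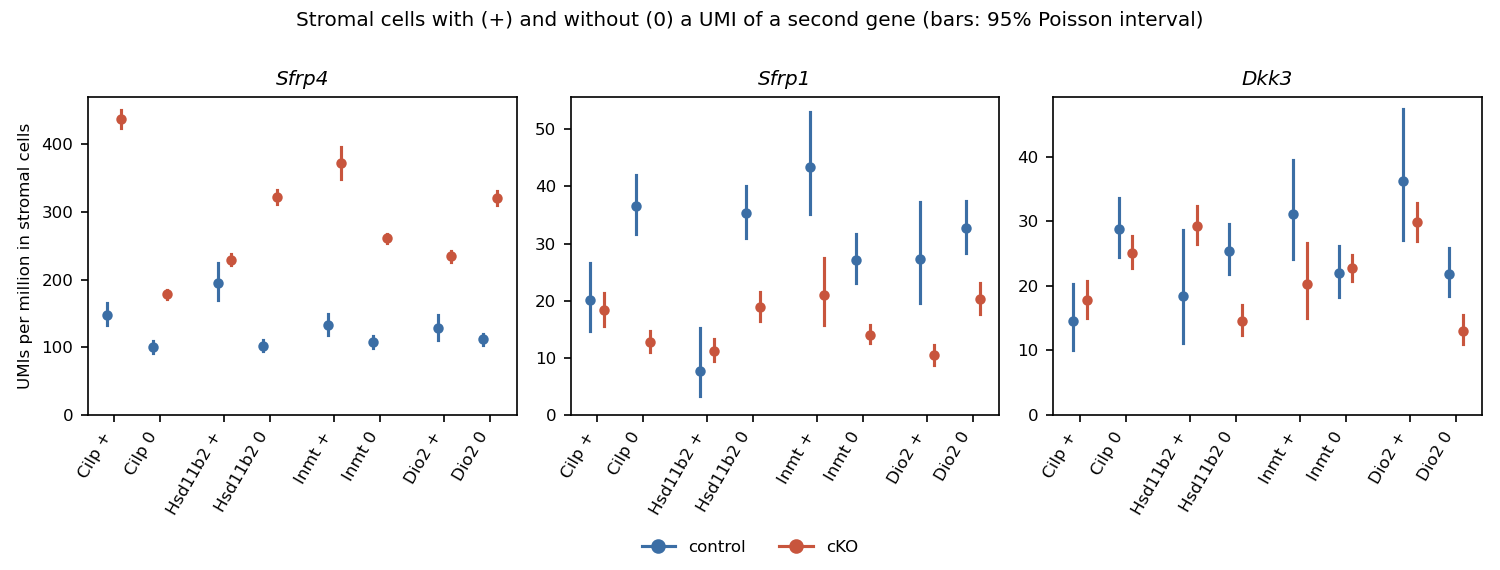
Level in CPM of Sfrp4, Sfrp1 and Dkk3 in stromal cells with (+) and without (0) a UMI of Cilp, Hsd11b2, Inmt or Dio2, control in blue and cKO in red, with 95% Poisson intervals. Sfrp4 in cKO is at 437 with Cilp and 178 without, and Sfrp1 in control is at 20.02 with Cilp and 36.6 without.

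Detection of pairs in the same stromal cell was compared with the number that the 2 shares would give, after thinning to 5000 UMIs. Sfrp4 and Cilp shared 28 control cells, 1.50 times the number from their shares, and 158 cKO cells, 1.43 times it. Sfrp4 and Il6, a cytokine gene, shared 1.39 and 1.33 times it. In cKO Sfrp4 and Gpr83 shared 130 cells, 1.61 times it, whereas Sfrp4 and Cyp26b1 shared 7 cells against 32.0, or 0.218 times. Since Sfrp4 helped to name the group that Cilp and Gpr83 came from, these values describe that choice and are not independent of it.

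Among the modulators themselves, Sfrp1 and Dkk3 shared 10 control cells (1.27 times) and 12 cKO cells (1.57 times), and Sfrp1 and Rspo3 12 and 15 cells (1.32 and 1.52 times). Sfrp4 with Rspo3 was at 0.623 times in control and 1.13 times in cKO, and Sfrp4 with Sfrp1 at 0.745 and 1.29 times. These rest on 9 to 62 cells, and the differences between libraries were not tested. Several lay on the other side of 1 under an alternative: with the gate open to any cell with Pdgfra, Sfrp1 with Dkk3 was at 0.908 times in cKO and Sfrp1 with Sfrp4 at 1.25 times in control, and at 2000 UMIs a cell Sfrp4 with Rspo3 was at 1.07 times in control. In cKO, 15 of 23 Sfrp2-positive cells held Hsd11b2, 2.28 times the number from the shares, and 1 of 23 held Cilp, 0.190 times. Dkk3 and Cilp were seldom together, at 0.327 times in control (3 cells) and 0.606 times in cKO (15 cells). Notum in cKO was found with Dio2 in 22 of 40 cells, 1.54 times, but with the open gate in 14 of 39 cells, 1.02 times.

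The genes most like each modulator over thinned stromal cells were ranked by the lower of the Pearson correlations in the 2 libraries, over 6820 genes. For Sfrp4 they were Fxyd5 (r = 0.19 in control, 0.23 in cKO), Pi15 (0.19 and 0.19) and Cd55 (0.18 and 0.25). For Sfrp1 they were Mn1 (0.15 and 0.16), Gsn (0.13 and 0.14) and Dcn (0.13 and 0.13). For Dkk3 they were Ywhaq, Srgn and Oga, and for Rspo3 Jmjd1c, Amotl2 and Slc38a2, at r of 0.097 to 0.173. All are weak over 456 control and 1231 cKO cells that share a library, and at 2000 UMIs a cell 1 of 6 named genes compared, Pi15, came up again.

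The rest of the pathway in stroma was described by lists chosen with earlier results of these data known, beside 6.07% of all stromal genes past 2-fold higher and 6.65% past 2-fold lower. Of 13 other secreted modulators 5 had enough UMIs, with 1 higher, 0 lower and a median log2 ratio of 0.15; the higher one was Igfbp4, which encodes an insulin-like growth factor binding protein that can also inhibit Wnt signalling, at 85.5 and 256 CPM, 3.00-fold (2.77 to 3.25). Frzb, another frizzled-related antagonist, was at 119 and 109 CPM. Of 19 Wnt ligands 7 had enough UMIs, with 2 higher, 0 lower and a median of 0.70. These were Wnt5a at 27.3 and 75.3 CPM, 2.76-fold (2.39 to 3.19), a ligand best known for non-canonical signalling, and Wnt16 with 4 and 256 UMIs (0.508 and 10.5 CPM), 20.7-fold (8.003 to 76.7).

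Of 17 receptors and co-receptors 15 had enough UMIs, with 1 higher (Fzd2, 16.01 and 40.5 CPM, 2.53-fold, 2.10 to 3.07), 1 lower (Fzd9, 3.56 and 1.07 CPM) and a median of -0.22. Of 5 R-spondin receptors and ligases 3 had enough, with 0 past 2-fold either way and a median of -0.51: Lgr4 was at 10.4 and 7.33 CPM, Lgr6 at 25.4 and 44.8 CPM and Znrf3 at 25.5 and 17.5 CPM. Of 11 canonical targets 10 had enough, with 1 higher, 3 lower and a median of -0.29. Besides Lef1 and Nkd2, the genes past 2-fold were Ccnd1 (3.43 and 1.11 CPM) and Apcdd1 (15.9 and 7.58 CPM), both lower. Lef1, a nuclear mediator and target, had 2 UMIs in control and 183 in cKO (0.254 and 7.54 CPM), a ratio of 29.7 (8.09 to 247). Nkd2, a negative feedback gene, was 2.78-fold lower (11.6 and 4.16 CPM, 2.07 to 3.73), and Axin2, a widely used target, was at 61.8 and 101 CPM, a ratio of 1.63 (1.48 to 1.80). The canonical targets thus did not lie on 1 side.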

How the data were processed

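Single cells of 2 uterine libraries, 1 per group and each from 3 pooled mice, were analysed. The authors deposited raw UMI counts per gene and barcode, as unfiltered matrices. Per the file headers these came from Cell Ranger 4, while the submitters' processing notes name Cell Ranger 6.1.1 and build mm10. Of 32285 gene identifiers, 99.6% were found in GENCODE M21 (GRCm38), used only for gene positions. Cells needed 500 genes and at most 20% mitochondrial UMIs. No doublet caller was run for the values given. Cells with more than 1 class gene fell in no class, and as an alternative cells with a Scrublet-type score above 0.25 were removed (42 control and 60 cKO cells).

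Counts were summed per class and library, since cells are not replicates. CPM carry exact Poisson, shares exact (Clopper-Pearson) binomial and ratios exact conditional binomial 95% intervals. A count of 0 was taken to allow 3 counts. PCR duplicates were collapsed by UMI, and the intervals cover counting error only. A call past 2-fold needed 20 UMIs over both libraries, and medians over all genes or pathway lists carry 0.5 UMI added to each count. Cells were thinned to 1000 UMIs (all classes) or 5000 (stroma), leaving out shallower cells. Cell-free RNA was the sum of barcodes with at most 100 UMIs (730412 control, 812108 cKO). Alternatives were other gates (any cell with the class gene, or a strict gate), cell filters, equal weights per cell, TMM factors (edgeR 4.0.16), thinning, and leaving out the top cell. Co-detection was repeated with the open gate and at 2000 UMIs. The ratio script was tested on simulated counts. Analyses used Python 3.11.15 with numpy 2.4.6, scipy 1.17.1 and scanpy 1.11.5.

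The 10 genes, class genes, marker lists and pathway lists were chosen with earlier results of these data known. Every one of the 10 genes is described. Beside them are named the 3 genes most correlated with each one found in at least 5% of thinned stromal cells of both libraries, and the 6 pathway genes furthest past 2-fold in stroma by the interval limit nearer to 1. Frzb, Axin2, Fzd9, Ccnd1, Apcdd1, the R-spondin receptors and the immune lineage genes were named after their values were seen.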

Additional observations from a re-analysis of the deposited data

Results flagged for a closer look

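Sfrp1 differed in direction between classes, with a log2 ratio of cKO to control of 1.02 in epithelial and -1.10 in stromal cells, and the difference between classes was not tested. Dkk2 likewise had a log2 ratio of 2.19 in stromal and -0.91 in muscle cells, which was not tested either; 15 of the 20 control stromal UMIs of Dkk2 came from 1 cell.

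Signal also lay outside the 5 classes. In cells with no class gene, Sfrp4 was 1.93-fold higher in cKO (25.2 and 48.7 CPM), Dkk2 1.92-fold (9.18 and 17.6 CPM) and Dkk3 2.19-fold (8.16 and 17.8 CPM). In the same cells Notum was 3.44-fold lower in cKO (1.97 to 6.19; 13.9 and 4.05 CPM) and Rspo3 1.87-fold lower (1.49 to 2.35; 56.4 and 30.2 CPM). In cell-free barcodes, Sfrp4 was 7.07-fold higher in cKO and Notum 2.44-fold (4.65 and 11.4 CPM). The Notum ratio in cell-free RNA was opposite in direction to its ratios of 0.620 in stroma and 0.379 in epithelium.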

How the results depend on the processing

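Counts of genes past 2-fold are given as higher or lower in cKO. In stroma they were 2 higher and 2 lower, and thinning to 1000 UMIs gave 0 higher (Sfrp4 fell to a log2 ratio of 0.999) and 1 lower, with 4 genes left that had enough UMIs. The 2 and 2 held under the 9 other alternatives planned for stroma. In muscle (0 and 0), the gate open to any cell with the class gene gave 2 higher and 1 lower of 8 (7.63% and 8.04% of all genes), the strict gate 1 and 1 of 4 (7.73% and 5.63%), equal weights 1 higher, and thinning 2 lower. In epithelium (1 and 1), the higher count was 7 of 8 genes with enough UMIs under the open gate (29.5% of all genes there), 3 of 5 under the strict gate (23.7%), 2 of 3 with at least 300 genes (21.9%), and 0 with equal weights, TMM factors, thinning, or without the top cell; the lower count was 0 after thinning, where no gene had enough UMIs. In immune cells (1 higher, 0 lower), the open gate gave 3 higher and 1 lower of 8 (10.4% and 7.55%), the strict gate 2 higher of 5 (12%) and TMM factors 0 higher. In mesothelial cells (1 higher), the open gate gave 2 of 7 (7.93%), and the strict gate, thinning and leaving out the top cell 0. The sign of 2 ratios was reversed. Dkk3 in immune cells with Trdc, a subset split off after seeing the data, was at a log2 ratio of -0.13 in place of 1.21. The intervals of the libraries overlapped there, at 76.3 CPM (53.4 to 106) in control and 69.8 CPM (60.7 to 79.8) in cKO. Sfrp2 in mesothelial cells under the strict gate was at -0.25 in place of 1.85. The cause of these shifts was not tested. TMM moved log2 ratios by 0.46 in epithelial, 0.26 in immune and 0.21 in mesothelial cells.

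The epithelial cKO class had 59 cells and the mesothelial classes 25 and 32. No paired analysis was possible because each group was 1 library, and there was no replicate to leave out.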
